A study of Mus musculus with 78 samples.

Results

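The genes of the nuclear pore complex and of the carriers that pass through it were described in single blastomeres of mouse 4-cell and 8-cell embryos. Members were the protein-coding mouse genes whose symbols began with Nup and a digit, Kpna, Kpnb, Ipo and a digit, Tnpo or Xpo (Xpo5 excepted), together with Ndc1, Aaas, Seh1l, Tpr, Pom121 and Rae1. These rules found 49 genes of the 16956 listed in the gene tables, and all 49 were listed at both stages, among 15218 genes in the 4-cell table and 15342 in the 8-cell table. The rules used symbols only, not expression values.

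The embryos came from a cross of mice holding CAG-Brainbow2.1 at the ROSA26 locus with mice carrying a Cre that tamoxifen activates (Tg(CAG-cre/Esr1*)5Amc/J), so every embryo carried both transgenes, each under the ubiquitous CAG promoter. All embryos were exposed to 4-hydroxytamoxifen for 2 h at the 2-cell stage and then grew in KSOM medium, so no group here lacked the transgenes or the drug. The labels gave 36 blastomeres from 9 embryos at the 4-cell stage and 31 blastomeres from 4 embryos at the 8-cell stage, and the tables held 24 and 26 columns of FPKM (fragments scaled to the length of the gene and to the mapped fragments of the library). The labels assigned a lineage to 24 of the 4-cell blastomeres, from 6 embryos, and to 26 of the 8-cell blastomeres, from 4 embryos, the same numbers as the columns. The labels left 12 and 5 blastomeres without a lineage. The paper kept to the 50 blastomeres of known lineage, which is also the number of columns in both tables together. What the heading NA stands for was not stated, and it is not read here as an unresolved lineage. The columns bore names that matched no sample label, so that embryo and lineage of a column were not known here, 5 columns of the 8-cell table were headed NA, and each stage was treated as 1 sample with no test between stages. Blastomeres are cells, not replicates of a stage, and the stages came in separate tables with the totals used for scaling not stated, so every difference between stages below is a description of these blastomeres.

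Proteins and RNAs cross the nuclear envelope through the nuclear pore complex, a ring built of nucleoporins in several subcomplexes: the Y complex and the inner ring form the scaffold, phenylalanine-glycine-rich nucleoporins fill the central channel, membrane nucleoporins anchor the ring, and filaments and a basket extend to the cytoplasm and the nucleus. Importin alpha proteins (the Kpna genes) bind the classical nuclear localization signal and enter with importin beta (Kpnb1), other importin beta relatives (Ipo and Tnpo genes) bind their cargo directly, and exportins (Xpo genes) carry cargo out, all under the control of the GTPase Ran. In the cleaving embryo the nuclear envelope is taken apart and rebuilt at each division, and maternal transcripts are replaced by embryonic ones.

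Depth was estimated from the smallest steps of the FPKM values, at 6870000 to 16860000 fragments per 4-cell blastomere (median, 13350000) and 2330000 to 21730000 per 8-cell blastomere (median, 17220000). Genes above FPKM 1 numbered 3009 to 8276 (median, 7155) and 3548 to 8078 (median, 6773), respectively. Blastomeres below 0.67 of their stage's median gene number are called gene-poor here, and there were 2 at each stage. The shallowest 8-cell library was gene-poor, and without the gene-poor blastomeres the lowest 8-cell depth was 14440000 fragments. Of 7 genes of eggs and early embryos, only Dppa3 was above 1 in every 4-cell blastomere, and Dppa3, Pou5f1 and Zp3 were in every 8-cell blastomere. Dppa3 lay between 1303 and 4901 at the 4-cell stage and between 2474 and 10167 at the 8-cell stage. Padi6 had medians of 24.6 and 30.1, Nlrp5 had 5.06 and 0.12, and Ooep and Tcl1 had medians below 1 at both stages. Not all 7 genes were thus above 1 in each blastomere. By contrast, the summed FPKM of 7 cumulus cell genes (4 of which, Ptx3, Tnfaip6, Cyp11a1 and Inhba, were not listed) did not exceed 2.69 and 9.51. Of 4 trophectoderm genes, Krt8 had a median of 0 at the 4-cell stage and 43.3 at the 8-cell stage and Krt18 had 0 and 29.8, whereas Cdx2 and Krt7 were listed in the 8-cell table only, with medians of 0 and values above 1 in 4 and 1 of 26 blastomeres.

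The promoters of 5 members are shown because their stage medians carry the account below: Kpna2 was the member with the highest level, Kpna7 was nearly undetected, Nup62 and Nup205 were higher and Nup188 was lower at the 8-cell stage by at least 2-fold. Each sequence runs 5′ to 3′ on the strand of its gene, from 250 bases before to 50 bases after the annotated start in RefSeq (GRCm38.p6). The positions are chr11:106999476-106999775 (minus strand) for Kpna2, chr5:145009587-145009886 (minus strand) for Kpna7, chr7:44815838-44816137 (plus strand) for Nup62, chr6:35177366-35177665 (plus strand) for Nup205 and chr2:30286166-30286465 (plus strand) for Nup188. Capitals mark matches, on either strand, to the CCAAT box (CCAAT), the E-box (CACGTG), the core of the NRF1 motif (GCGCATG) and the core of the YY1 motif (AAGATGG), and overlapping matches run together.
Kpna2: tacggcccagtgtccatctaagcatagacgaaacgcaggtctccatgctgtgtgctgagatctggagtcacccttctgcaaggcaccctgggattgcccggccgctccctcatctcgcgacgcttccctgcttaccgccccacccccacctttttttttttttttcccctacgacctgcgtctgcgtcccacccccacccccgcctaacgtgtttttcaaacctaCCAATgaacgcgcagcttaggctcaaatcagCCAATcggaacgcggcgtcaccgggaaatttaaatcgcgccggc
Kpna7: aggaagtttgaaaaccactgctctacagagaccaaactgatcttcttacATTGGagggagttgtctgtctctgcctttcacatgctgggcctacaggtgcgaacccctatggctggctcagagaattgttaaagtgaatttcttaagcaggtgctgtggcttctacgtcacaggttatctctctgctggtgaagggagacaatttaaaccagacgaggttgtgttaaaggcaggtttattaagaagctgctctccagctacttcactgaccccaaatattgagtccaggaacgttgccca
Nup62: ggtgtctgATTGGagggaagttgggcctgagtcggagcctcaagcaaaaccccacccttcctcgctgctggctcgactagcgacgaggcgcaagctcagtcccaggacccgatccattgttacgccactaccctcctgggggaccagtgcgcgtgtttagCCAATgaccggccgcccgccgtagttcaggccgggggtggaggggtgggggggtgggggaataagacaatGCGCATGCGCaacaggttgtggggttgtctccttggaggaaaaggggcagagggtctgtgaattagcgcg
Nup205: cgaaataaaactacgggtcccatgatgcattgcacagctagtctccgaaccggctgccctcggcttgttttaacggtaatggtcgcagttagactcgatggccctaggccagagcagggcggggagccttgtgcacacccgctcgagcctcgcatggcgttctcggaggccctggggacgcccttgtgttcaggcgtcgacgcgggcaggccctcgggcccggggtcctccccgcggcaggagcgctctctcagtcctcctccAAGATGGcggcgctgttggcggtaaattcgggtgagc
Nup188: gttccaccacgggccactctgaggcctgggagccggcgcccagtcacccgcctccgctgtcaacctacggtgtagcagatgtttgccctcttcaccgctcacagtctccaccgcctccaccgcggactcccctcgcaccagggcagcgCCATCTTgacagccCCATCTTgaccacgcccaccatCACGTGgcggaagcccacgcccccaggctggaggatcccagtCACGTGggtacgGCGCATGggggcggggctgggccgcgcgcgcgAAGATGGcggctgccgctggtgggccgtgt

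The Kpna2 window held 2 CCAAT matches near the start, the Kpna7 window held 1, farther upstream, and the Nup62 window held 2 beside an NRF1 core that matched on both strands. A YY1 core lay just after the start of both Nup205 and Nup188, and the Nup188 window also held 2 E-boxes, an NRF1 core and further YY1 cores upstream. Promoters were given for 39 of the 49 members. Shares follow for all 32851 promoters and then for the 27025 genes with at least 1 promoter, the unit in which members are counted. CCAAT was present in 21 of the 39 members, against 37.4% of promoters and 41.1% of genes, and the E-box in 7, against 7.15% and 8.09%. The NRF1 core was present in 7 (Nup107, Nup133, Nup188, Nup50, Nup62, Rae1 and Xpot), against 3.91% and 4.41%, and the YY1 core in 4 (Nup188, Nup205, Nup50 and Nup88), against 6.34% and 7.28%. The YY1 core was found both in Nup205, the higher gene, and in Nup188, the lower gene. These matches are letters in a window and were not tested as binding sites.

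As a group, the members were well expressed. The median FPKM over blastomeres was above 1 for 43 of 49 members at the 4-cell stage and for 42 at the 8-cell stage, where the shares over all listed genes were 44.4% and 40.6%. The members' medians lay, in the middle, at percentile 80.4 of the 4-cell table and 82.5 of the 8-cell table. A single blastomere had 28 to 46 members above FPKM 1 (median, 44) at the 4-cell stage and 27 to 45 (median, 41.5) at the 8-cell stage, and the lowest numbers belonged to gene-poor blastomeres, without which they were 37 and 32. The members together took 0.498 to 1.01% of the summed FPKM (median, 0.679%) in 4-cell blastomeres and 0.383 to 0.855% (median, 0.693%) in 8-cell blastomeres. The gene-poor 4-cell blastomeres held the highest 4-cell shares, 1.01% and 0.899%, and the next highest was 0.807%. All 8-cell blastomeres with 5391 or fewer genes above FPKM 1, gene-poor or not, had at most 36 members above 1. They also held the lowest 8-cell shares, up to 0.512%.

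At each stage 16 members were above FPKM 1 in every blastomere, where 8.88% of all listed genes were at the 4-cell stage and 11.4% at the 8-cell stage. Without the gene-poor blastomeres the numbers were 27 and 23, where 16.4% and 14.6% of all listed genes were. The other end of the range was held by Nup210 and Kpna7: Nup210, a membrane nucleoporin, was above 1 in no 4-cell blastomere (10.8% of all listed genes), and Kpna7, an importin alpha known from eggs and early embryos, was above 1 in no 8-cell blastomere (15% of all listed genes). Across genes, the medians fell with exon length, with a Spearman rho of -0.59 over 43 members at the 4-cell stage and -0.62 over 42 members at the 8-cell stage, against -0.42 at both stages over all genes with a median above 1. The genes share libraries and are not independent replicates, and the gene lengths used to make the FPKM were not stated.

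**Figure D1:**
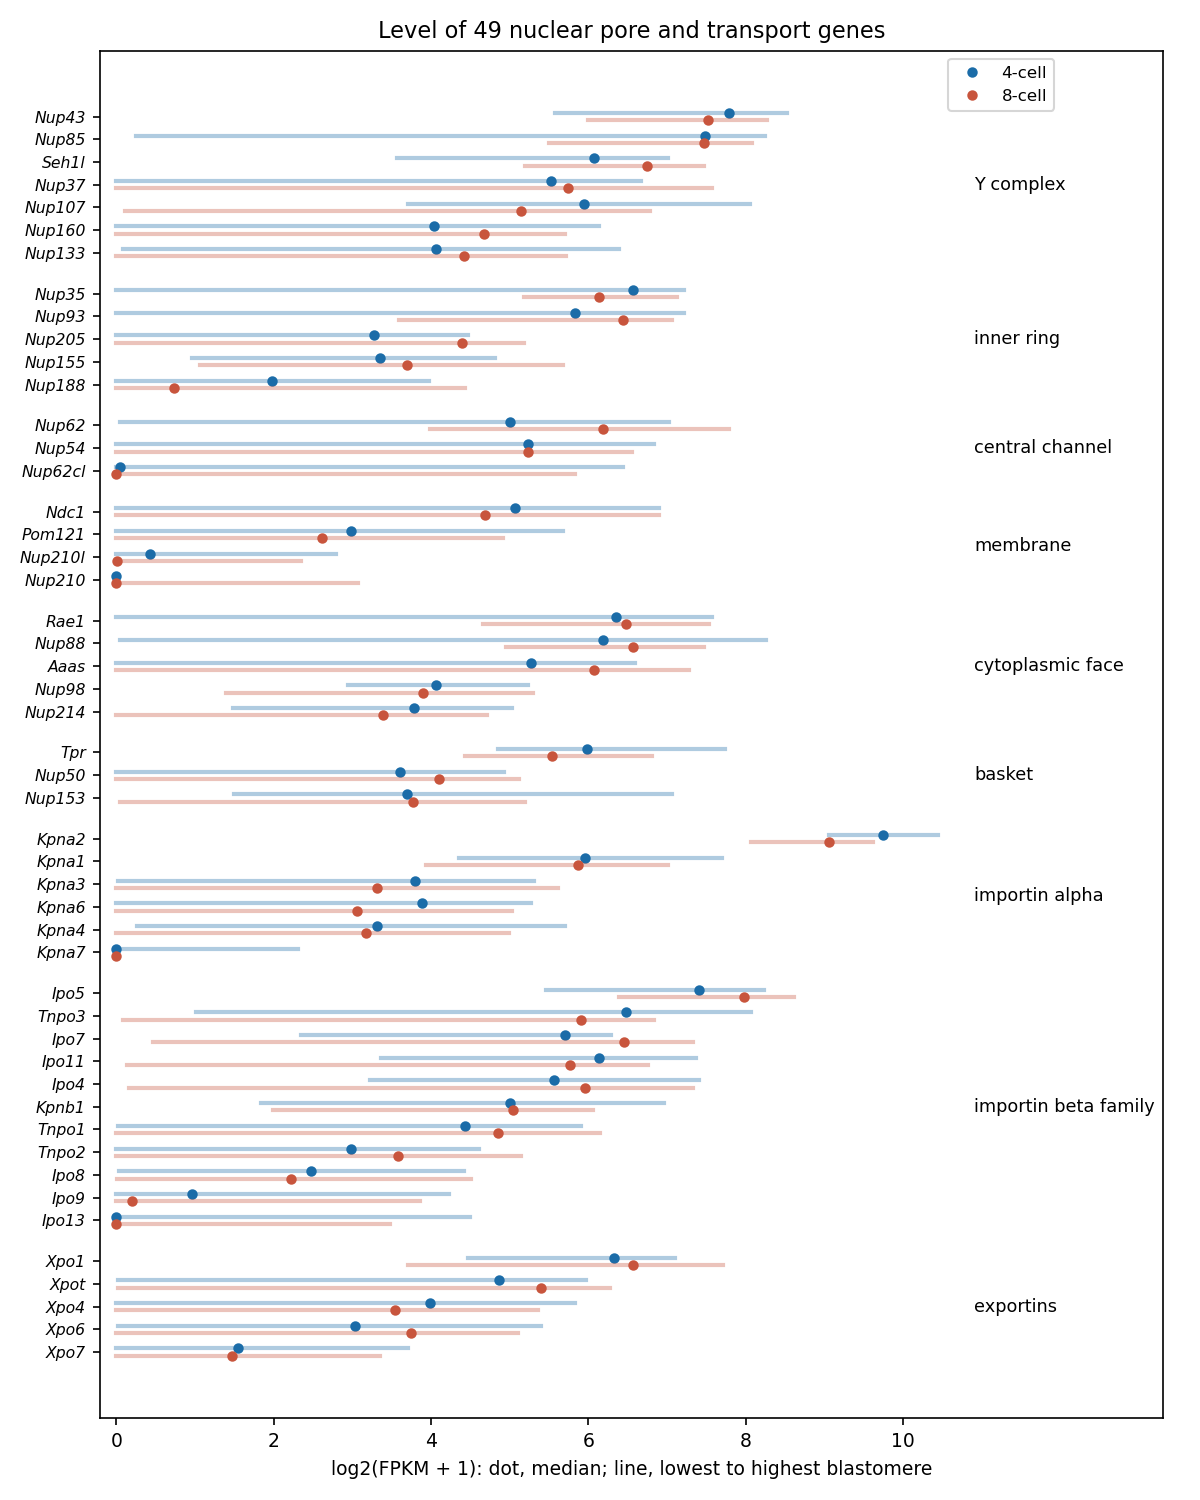
Level of the 49 members by role, as log2(FPKM + 1) on the x axis; dots are medians and lines run from the lowest to the highest blastomere (blue, 24 blastomeres at the 4-cell stage; red, 26 at the 8-cell stage). The median of Kpna2 lies to the right of every other median at both stages, and the ranges of the stages overlap for all 49 members.

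The importin alpha genes were dominated by Kpna2, which was the member with the highest median at both stages. Kpna2 (chr11:106988629-106999525; karyopherin alpha 2, the importin alpha prominent in proliferating and embryonic cells) ranged from 532 to 1393 FPKM with a median of 858 in 4-cell blastomeres, and from 266 to 786 with a median of 529 in 8-cell blastomeres. It ranked 34th of all genes by median at the 4-cell stage and 99th at the 8-cell stage. No 8-cell blastomere was above the 4-cell median and no 4-cell blastomere was below the 8-cell median, an arrangement, higher at the 4-cell stage, that held for 0.309% of the 7131 genes compared. The ranges nevertheless overlapped, with 12 of 26 8-cell blastomeres above the lowest 4-cell value. That value, 532, belonged to a gene-poor blastomere, and without the columns headed NA it lay below the 8-cell median. The median of log2(FPKM + 1) was lower at the 8-cell stage by a difference of -0.70, which is short of the 2-fold used for a call. RefSeq lists a pseudogene, Kpna2-ps, and reads aligned to several places were dropped by the authors, so fragments shared with that copy would be missing from these values.

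Kpna1 (importin alpha 5) was the second importin alpha gene in every blastomere. It ranged from 19.4 to 206 with a median of 61.1 at the 4-cell stage, and from 14.3 to 128 with a median of 57.5 at the 8-cell stage. Kpna2 was above Kpna1 in 24 of 24 and 26 of 26 blastomeres, 14.05-fold by medians at the 4-cell stage and 9.20-fold at the 8-cell stage, and Kpna1 was above each of Kpna3, Kpna4 and Kpna6 in all of them.

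Kpna3, Kpna4 and Kpna6 were lower and had no fixed order. Kpna3 had a 4-cell median of 12.8 (lowest 0.02, highest 38.6) and an 8-cell median of 8.90 (0 to 47.8). Kpna4 had medians of 8.93 (0.20 to 51.0) and 7.99 (0 to 30.8). Kpna6 had medians of 13.7 (0 to 37.7) and 7.37 (0 to 31.5). In pairwise comparisons within blastomeres, Kpna3 was above Kpna6 in 15 of 24 and 12 of 26, Kpna3 above Kpna4 in 14 of 24 and 12 of 26, and Kpna6 above Kpna4 in 15 of 24 and 14 of 26, so that the 3 neighbours did not separate beyond the spread between blastomeres.

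Kpna7 was listed at 0 in 21 of 24 4-cell blastomeres and above 1 in 2 of them, with a highest value of 3.94, and in 25 of 26 8-cell blastomeres it was listed at 0, with a highest value of 0.03. In the shallowest library of each stage 3 fragments of Kpna7 would have given 0.188 and 0.552 FPKM, a limit that covers counting error only. Since genes such as Rae1 and Nup35 were also listed at 0 in single blastomeres, a 0 here says only that the gene was listed so.

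**Figure D2:**
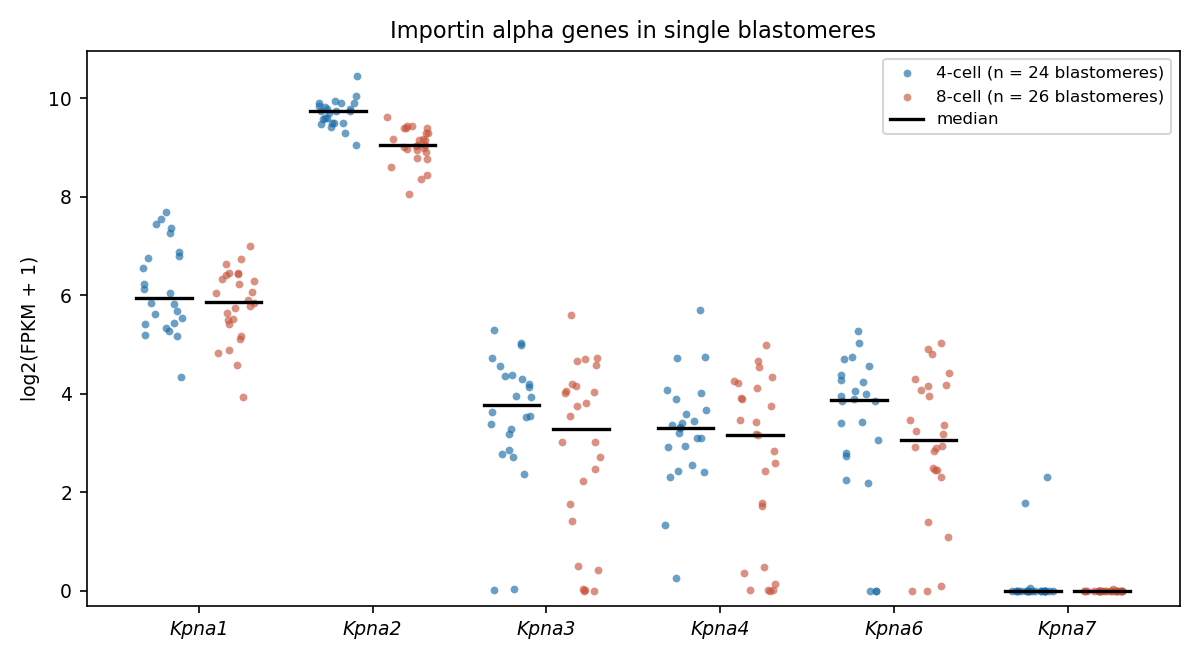
The 6 importin alpha genes in single blastomeres, as log2(FPKM + 1) on the y axis; each point is a blastomere (blue, 4-cell, n = 24; red, 8-cell, n = 26) and black bars are medians. All points of Kpna2 lie above all points of the other 5 genes, its 8-cell points sit lower than its 4-cell points with some overlap, and Kpna7 lies at or near 0.

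Within the summed FPKM of the importin alpha genes, Kpna2 took 61.5 to 94.0% (median, 89.2%) at the 4-cell stage and 72.9 to 97.2% (median, 85.5%) at the 8-cell stage. Kpna1 took medians of 6.63% and 9.33%. The shares overlapped between stages: 7 of 24 4-cell blastomeres were below the 8-cell median share of Kpna2 and 6 of 26 8-cell blastomeres were above the 4-cell median share. The lowest share, 61.5%, belonged to the gene-poor 4-cell blastomere with 3009 genes, which also had the lowest 4-cell value of Kpna2 and the highest 4-cell values of Kpna1, Kpna3, Kpna4 and Kpna6. Counted in estimated fragments, which are not divided by gene length, the median share of Kpna2 was 79.7% and 73.9%. The 5 importin alpha genes compared between stages all had a difference below 0, from -0.82 for Kpna6 to -0.08 for Kpna1, and none reached 2-fold, while 44.6% of all genes compared were above 0. That shared sign did not hold under every alternative: without the gene-poor blastomeres Kpna1 was at 0.14 and Kpna4 at 0.04, with FPKM rescaled to an equal sum Kpna4 was at 0.03, and without the columns headed NA Kpna3 was at 0.04. Kpna2 and Kpna6 stayed below 0 under each alternative run.

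Stage differences were computed for the 43 members with a median above 1 in at least 1 stage. Kpna7, Nup62cl, Ipo13, Ipo9, Nup210 and Nup210l were below that level at both stages. Of the 43, 2 were at least 2-fold higher at the 8-cell stage (Nup62 and Nup205), against 9.87% of all 7131 genes, and 1 was at least 2-fold lower (Nup188), against 18.5%. No member had ranges that did not overlap between stages, and among all genes compared the share was 0%. The members' median difference was 0.03 on the log2 scale beside -0.11 for all genes, with 23 members above 0 and 20 below, and 26 members (60.5%) lay within 0.5 of 0, where 46.5% of all genes did. At a limit of 1.5-fold, 9 members were higher, against 19.3% of all genes, and 4 were lower (Nup188, Kpna6, Nup107 and Kpna2), against 29%.

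**Figure D3:**
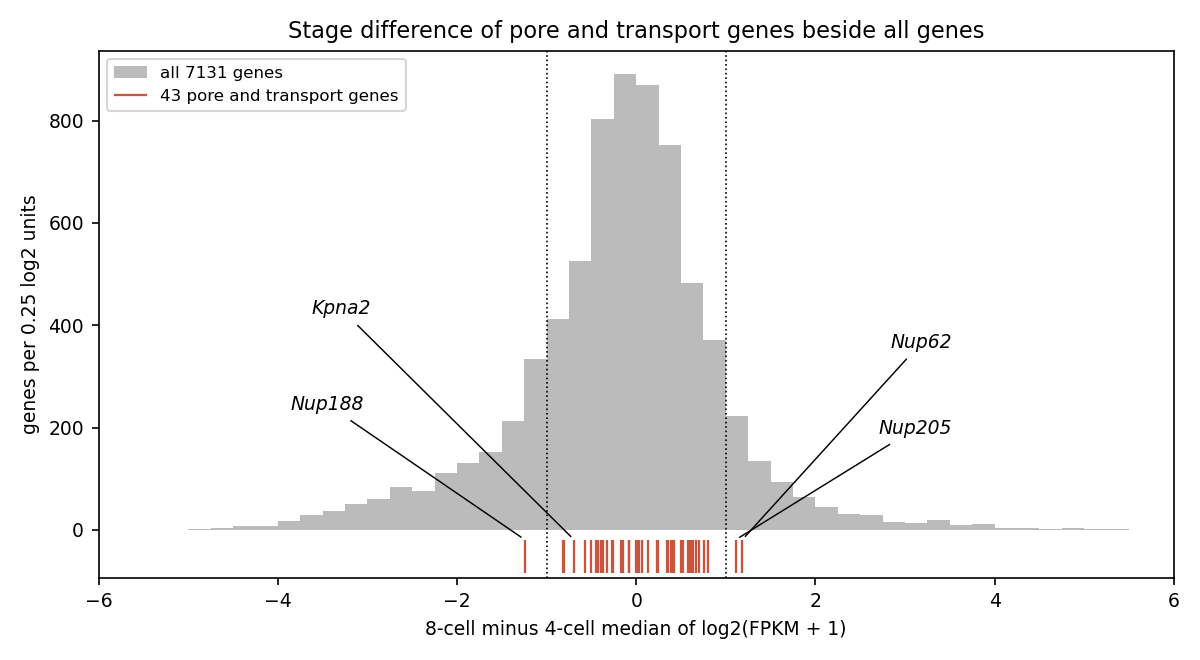
Stage difference, as the 8-cell minus the 4-cell median of log2(FPKM + 1), for all 7131 genes compared (grey histogram, genes per 0.25 log2 units) and for the 43 members (red ticks); dotted lines mark 2-fold. Nup62 at 1.19 and Nup205 at 1.11 lie right of the upper line and Nup188 at -1.25 left of the lower line, with the other 40 members between the lines.

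Nup62 (chr7:44816088-44831836), a phenylalanine-glycine nucleoporin of the central channel, ranged from 0.03 to 129 with a median of 31.03 in 4-cell blastomeres, and from 14.9 to 220 with a median of 71.8 in 8-cell blastomeres. The log2 difference was 1.19, with 24 of 26 8-cell blastomeres above the 4-cell median and 7 of 24 4-cell blastomeres above the 8-cell median. The 4-cell values below 1 belonged to the 2 gene-poor blastomeres, and without the gene-poor blastomeres of both stages the lowest values were 9.06 and 27.4 and the difference was 1.22. Exons of Nup62 overlap those of Atf5 and Il4i1b in the annotation, and the library kit does not mark strand, so fragments of the shared stretches cannot be told apart.

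Nup205 (chr6:35177616-35247599) is a large scaffold protein of the inner ring. It ranged from 0 to 21.2 with a median of 8.69 at the 4-cell stage, and from 0 to 35.4 with a median of 19.97 at the 8-cell stage, a log2 difference of 1.11. Of the 4-cell blastomeres 23 of 24 were below the 8-cell median, and 6 of 26 8-cell blastomeres were below the 4-cell median. The 5 blastomeres in columns headed NA held 24.7 to 35.4, all above the 8-cell median, and without them the difference was 0.98, under 2-fold.

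Nup188 (chr2:30286407-30344266), the paralogue of Nup205 in the inner ring, went the other way. It ranged from 0 to 14.7 with a median of 2.96 at the 4-cell stage, and from 0 to 20.6 with a median of 0.66 at the 8-cell stage, a log2 difference of -1.25. The highest 8-cell value was above all 4-cell values, 7 of 26 8-cell blastomeres were above the 4-cell median, and the 8-cell median rested on about 58.0 fragments. All 8-cell blastomeres with 5391 or fewer genes above FPKM 1 held Nup188 at 0.03 or less, as did some with more genes. The size of the difference varied with the scale: with the mean of log2(FPKM + 1) in place of the median it was -0.73, under 2-fold, and with a pseudocount of 0.1 it was -2.00. Within blastomeres, Nup205 was above Nup188 in 16 of 24 at the 4-cell stage and in 22 of 26 at the 8-cell stage.

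Nup35 (chr2:80638812-80660071), which binds membrane and scaffold and was the inner ring gene with the highest level averaged over stages, ranged from 0 to 147 with a median of 93.4 at the 4-cell stage, and from 35.2 to 138 with a median of 69.2 at the 8-cell stage, a difference of -0.43. Its 0 belonged to the gene-poor 4-cell blastomere with 3009 genes, and without the gene-poor blastomeres the 4-cell range was 49.8 to 147 and the SD of log2(FPKM + 1) over blastomeres was 0.47 rather than 1.43. Nup93, the linker of the ring, had medians of 56.0 and 86.0, and Nup35 was above it in 18 of 24 4-cell and 10 of 26 8-cell blastomeres, so that these neighbours had no fixed order. Nup93 was above Nup205 in 21 of 24 and 26 of 26 blastomeres and above Nup188 in 22 of 24 and 26 of 26. Nup155 had medians of 9.22 and 11.9, with Nup35 above it in 23 of 24 and 26 of 26 blastomeres.

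**Figure D4:**
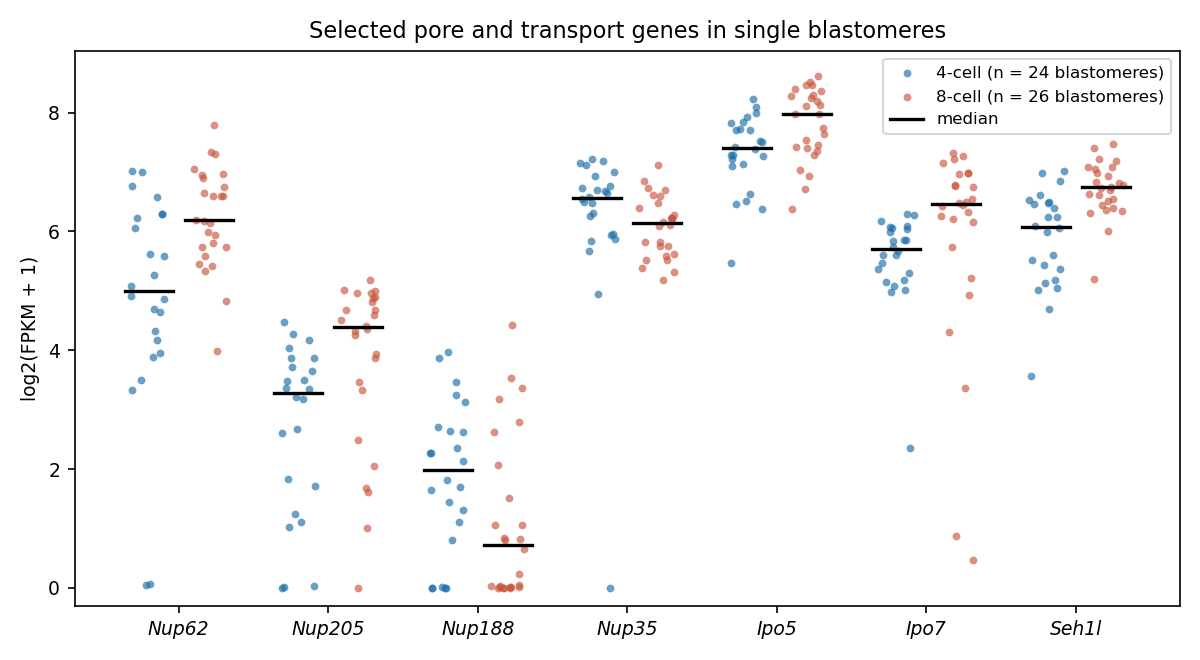
Members discussed for their stage difference, as log2(FPKM + 1) on the y axis; each point is a blastomere (blue, 4-cell, n = 24; red, 8-cell, n = 26) and black bars are medians. Nup62, Nup205, Ipo5, Ipo7 and Seh1l have higher 8-cell medians, Nup188 and Nup35 have lower ones, and the points of both stages overlap for every gene.

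In the Y complex, the outer scaffold, no member reached 2-fold. Nup43 (chr10:7667504-7678886), a beta-propeller protein of the complex, had the highest level, 46.8 to 366 with a median of 219 at the 4-cell stage and 62.7 to 306 with a median of 182 at the 8-cell stage. Nup133 had the lowest level averaged over stages, with medians of 15.7 and 20.3, and Nup160 was close to it, with 15.4 and 24.5. Genes for partners in a single complex thus spanned 14.2-fold by median FPKM at the 4-cell stage and 8.94-fold at the 8-cell stage, and Nup43 was above both Nup133 and Nup160 in 24 of 24 and 26 of 26 blastomeres. Nup43 has the shortest exons of the 7, and the part of gene length in this order was not tested. Nup85 followed Nup43 with medians of 177 and 176, and Nup43 was above it in 15 of 24 and 13 of 26 blastomeres, and Nup37 had medians of 44.8 and 52.5.

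Seh1l and Ipo7 were picked out after their values were seen. Seh1l, a Y complex protein shared with a nutrient-sensing complex, had medians of 66.3 (10.8 to 128) and 106 (35.7 to 175), a difference of 0.67, and 24 of 26 8-cell blastomeres were above the 4-cell median. Nup107 moved in the other direction, from 60.7 (12.04 to 265) to 34.4 (0.08 to 109), a difference of -0.80, with 21 of 26 8-cell blastomeres below the 4-cell median. Both ends of the 8-cell range of Nup107 belonged to gene-poor blastomeres, without which it was 6.45 to 88.9. Ipo7, an importin for ribosomal proteins and histone H1, had medians of 51.1 (4.08 to 77.0) and 86.6 (0.38 to 159), a difference of 0.75 (0.32 with the mean in place of the median). All 24 4-cell blastomeres were below its 8-cell median, as held for 0.589% of the genes compared, while 6 of 26 8-cell blastomeres were below its 4-cell median.

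In the central channel, Nup54, a partner of Nup62, had medians of 36.6 and 36.7, and Nup62 was above it in 11 of 24 4-cell and 19 of 26 8-cell blastomeres. Nup62cl, an X-linked relative of Nup62, had the lowest level, with medians of 0.04 and 0, yet it was above 1 in 11 of 24 and 3 of 26 blastomeres with highest values of 85.9 and 55.9. Without the gene-poor blastomeres the 4-cell median of Nup62cl was 1.92. Nup62cl was listed at 0 in 12 of 24 4-cell and 23 of 26 8-cell blastomeres. Its listed values within a stage thus ran from 0 to among the higher values of the members. Here too a 0 says only that the gene was listed so.

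Among membrane nucleoporins, Ndc1, the transmembrane anchor, had the highest level, from 0 to 119 with a median of 32.4 at the 4-cell stage and from 0 to 118 with a median of 24.7 at the 8-cell stage. It was also the member with the widest spread at the 8-cell stage among those with a median above 1, with an SD of 2.497. Pom121 had medians of 6.88 and 5.12, and Nup210l, a relative of Nup210, had 0.35 and 0.01. Nup210 had the lowest level, at 0 in 23 of 24 4-cell blastomeres with a highest value of 0.01, and above 1 in 3 of 26 8-cell blastomeres with a highest value of 7.43.

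At the cytoplasmic face no member reached 2-fold. Rae1, an mRNA export factor, had the highest level averaged over stages, with medians of 80.7 (0 to 190) and 88.2 (24.3 to 184), while Nup88 had 71.6 (0.03 to 306) and 93.7 (30.04 to 176). Nup214, the partner of Nup88, had the lowest, with 12.7 (1.80 to 31.6) and 9.46 (0 to 25.1), and Nup88 was above it in 22 of 24 and 26 of 26 blastomeres. Without the gene-poor blastomeres the 4-cell ranges were 21.7 to 190 for Rae1 and 25.1 to 168 for Nup88. Aaas, the gene of triple A syndrome, had the largest difference of this group, 0.80, from a median of 37.7 to 66.1, and the highest SD of all members with a median above 1 at the 4-cell stage, 2.07. In the nuclear basket, Tpr, its main filament, had medians of 62.4 (27.9 to 212) and 45.3 (20.6 to 111). Nup153, which joins the basket to the ring, had the lowest level averaged over stages, 11.996 (1.82 to 133) and 12.6 (0.04 to 35.5). Nup50, a mobile basket protein, had 11.2 and 16.2, and Nup98, an FG nucleoporin, had 15.7 and 13.8. Exons of Tpr, Nup214 and Nup88 overlap other annotated genes, as do those of Seh1l, Pom121, Ipo11, Tnpo2 and Tnpo3 in other roles.

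Among the importin beta relatives, none of the 9 genes compared reached 2-fold. Ipo5 (chr14:120896840-120948046), an importin for ribosomal proteins and histones, had the highest level, from 43.2 to 299 with a median of 168 at the 4-cell stage and from 82.5 to 390 with a median of 250.8 at the 8-cell stage. The difference of Ipo5 was 0.57. Its columns headed NA held 251.5 to 364.6, all above the 8-cell median, and without them the difference was 0.23. Ipo5 was above Kpnb1, importin beta itself, in 23 of 24 and 26 of 26 blastomeres, and Kpnb1 had nearly equal medians of 31.2 (2.59 to 124) and 31.8 (2.97 to 65.4). Kpna2 exceeded Kpnb1, its carrier partner, in every blastomere, 27.5-fold by medians at the 4-cell stage and 16.6-fold at the 8-cell stage. Ipo13 had the lowest level, with medians of 0 at both stages, and was above 1 in 6 of 24 and 4 of 26 blastomeres with highest values of 21.6 and 10.2. Ipo9 was also low, with medians of 0.95 and 0.15, and was above 1 in 12 of 24 and 10 of 26 blastomeres. Tnpo3, Tnpo2, Ipo11, Ipo4, Tnpo1 and Ipo8 had differences from -0.57 for Tnpo3 (medians of 87.9 and 58.9) to 0.60 for Tnpo2 (6.89 and 10.96), and the other 4 lay within 0.5 of 0.

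Of the exportins, Xpo1 (CRM1, the receptor for leucine-rich export signals) had the highest level, from 21.2 to 136 with a median of 79.4 at the 4-cell stage and from 12.1 to 208 with a median of 94.1 at the 8-cell stage. Xpot, which exports tRNA, had medians of 28.2 and 41.1. Xpo7 had the lowest level, 0 to 12.1 with a median of 1.92 and 0 to 9.19 with a median of 1.76. None of the 5 exportins reached 2-fold, with differences from -0.44 for Xpo4 to 0.71 for Xpo6.

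The spread between blastomeres was somewhat narrower for the members than for genes at large. The SD of log2(FPKM + 1) over blastomeres had a median over members of 1.26 at the 4-cell stage and 1.29 at the 8-cell stage, against 1.52 and 1.48 over all genes with a median above 1. Kpna2 had the lowest SD of these members, 0.28 and 0.37, and 0.0887% and 2.25% of genes with a median above 1 had a lower one. Without the gene-poor blastomeres the median SD over members was 1.01 at the 4-cell stage and 0.998 at the 8-cell stage. No value over all genes is set beside these 2, so the comparison with genes at large holds for all blastomeres only. Since the SD differs with the level in these libraries, the SDs are given beside the level and not as a property of the genes.

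**Figure D5:**
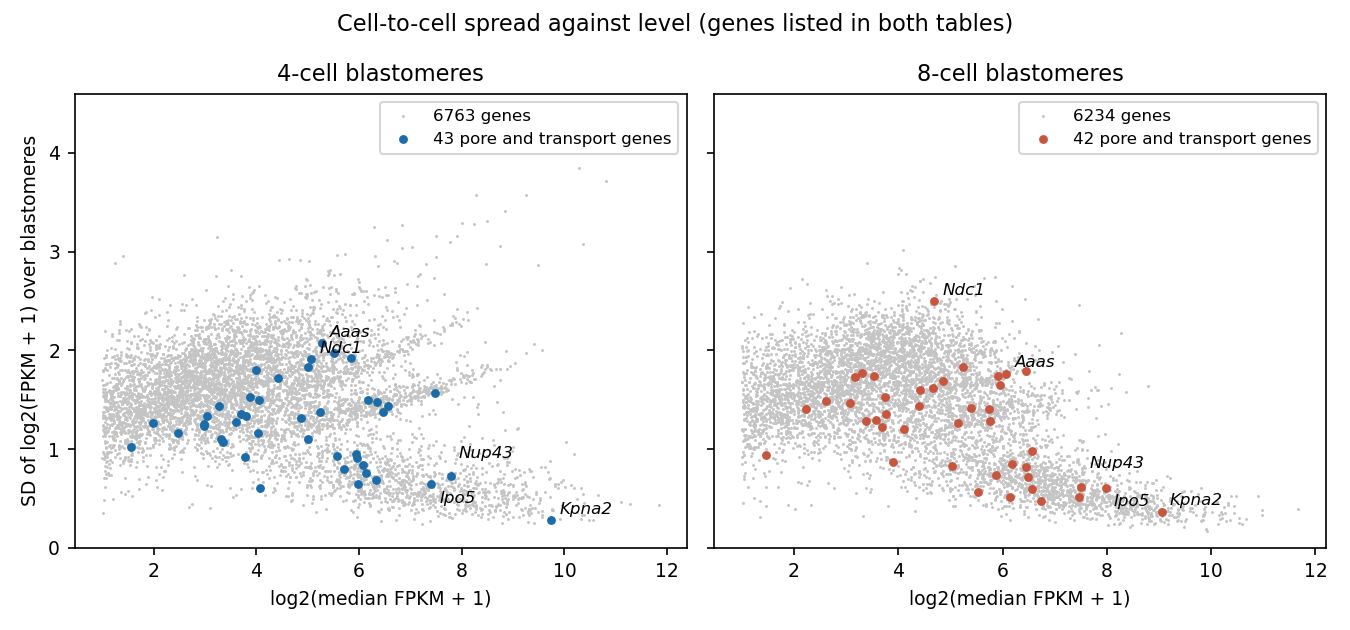
SD of log2(FPKM + 1) over blastomeres (y axis) against log2(median FPKM + 1) (x axis), with the 4-cell stage on the left and the 8-cell stage on the right. Grey points are genes with a median above 1 at that stage, out of the 13604 listed at both stages, and coloured points are members (43 and 42). Kpna2 lies at the lower right edge of both panels, whereas Aaas at the 4-cell stage and Ndc1 at the 8-cell stage lie at the top of the members.

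The gene-poor blastomeres took part in the extremes. At the 4-cell stage 13 of 49 members (26.5%) had their highest value in a gene-poor blastomere, against 12.6% of all listed genes, and at the 8-cell stage 5 of 49 did (10.2%), against 11.4%. The 4-cell blastomere with 3009 genes alone held 10 of the highest values, among them Tpr at 212, Nup153 at 133 and Tnpo3 at 266. A different 4-cell blastomere, with 7179 genes and 15650000 fragments, held the highest values of 9 members, among them Kpnb1 at 124, Nup188 at 14.7 and Xpo4 at 56.0.

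Another 22 genes of nuclear transport that the naming rules missed were set beside the members: 8 of the Ran cycle and 14 other pore, export and import genes. Of the 21 compared between stages, 0 were at least 2-fold higher and 1 was lower, against 9.87% and 18.5% of all genes. The lower gene was Snupn, the import adaptor of spliceosomal snRNPs, with medians of 249 (98.4 to 504) and 111 (37.3 to 247), a difference of -1.16. Ran itself had medians of 472 (33.6 to 636) and 492 (338 to 1048), and Ranbp1, which promotes GTP hydrolysis on Ran, had 450 (28.2 to 708) and 515 (425 to 1155). Cse1l, the exportin that returns importin alpha to the cytoplasm, had medians of 124 (0.06 to 269) and 114 (7.16 to 229).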

How the data were processed

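Single blastomeres were amplified by Smart-seq2, made into Nextera XT libraries and sequenced as 100-nt read pairs. The authors aligned reads with STAR 2.5.1b to mm10, kept uniquely aligned reads, counted them on RefSeq genes with HTSeq-count and deposited FPKM, with the gene lengths and totals not stated. The stage of each table was taken from its name and the study's text. All 50 columns matched no sample label and were not assigned to samples. The labels also hold 5 samples marked as 5-cell and 6 marked as 6-cell, which were not analysed here, and the tables of transposon copies were not used.

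Entrez IDs were matched to RefSeq genes of GRCm38.p6 (15200 of 15218 and 15320 of 15342). The fragments behind each value were estimated from exon lengths and the steps of low values, and at least 90.6% of the values checked in each blastomere (0.5 to 10 fragments) were whole within 0.1. Medians of log2(FPKM + 1) were compared between stages for genes with a median FPKM above 1 in at least 1 stage, and a difference of 1 or more in size was the call. With 1 sample per stage no p-value was computed. The computation was tested on simulated data whose planted changes were larger than those called here, so that test does not cover calls near 2-fold. Python 3.11.15, numpy 2.4.6, pandas 2.3.3, scipy 1.17.1 and matplotlib 3.10.9 were used. Named genes were every Kpna gene, Nup35, every member past 2-fold, the members with the highest and lowest level of each role, and members below FPKM 1 throughout a stage. Other members are given as partners of a named gene, as ends of a range or, as with Seh1l, Ipo7 and Aaas, for values already seen. Members, lists and motifs were chosen with earlier results of these data known. Alternatives changed the pseudocount, low-value filter, average, scaling, threshold and blastomeres included.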

Additional observations from a re-analysis of the deposited data

How the results depend on the processing

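Each stage was treated as 1 sample, because the embryo and lineage of a column were not known here, and the gene lengths were unstated. In the shallowest library of each stage 3 fragments of Nup188 would give 0.0767 and 0.226 FPKM. The number of members at least 2-fold higher at the 8-cell stage, 2 in the report, was 9 with 1.5-fold as the limit (19.3% of all genes) and 1 without the columns headed NA (8.72% of all genes), where Nup205 was lost. The number lower, 1 in the report, was 4 with 1.5-fold (29% of all genes; Kpna2 was among them), 0 with the mean in place of the median (12.2%), 2 with FPKM rescaled to an equal sum in every blastomere (20.3%), where Ipo9 at -1.01 was added, and 3 without the gene-poor blastomeres (18.6%), a choice made after seeing the data, where Ipo9 and Nup62cl, both at -1.18, were added. With the mean, Aaas at 1.11 made the number higher 3 (8.33%). Leaving out each of the 50 blastomeres in turn gave 2 to 2 higher and 1 to 2 lower, with Ipo9 at -1.12 called in 12 of 50. The members' median difference lay between -0.03 and 0.11 over the alternatives and between 0.01 and 0.09 when a blastomere was left out, and the median over all genes was 0 with no filter on low values (0 for the members too), -0.06 with the mean (-0.03 for the members), -0.07 after rescaling, -0.05 with median-of-ratios size factors and -0.15 without the columns headed NA. Members above the threshold in every 4-cell blastomere were 27 without the gene-poor blastomeres (16.4% of all listed genes) rather than 16 (8.88%), and the median number per 4-cell blastomere was 38 at FPKM above 5 rather than 44. The median share of Kpna2 was 79.7% and 73.9% in estimated fragments, and 88.8 to 89.6% at the 4-cell stage and 85.4 to 85.7% at the 8-cell stage when a blastomere was left out. The cause of these shifts was not tested. Nup62, Nup205, Nup188, Kpna2 and Nup35 kept the sign of their difference under every alternative run. No paired analysis was possible because nothing ties a blastomere at one stage to a numbered partner at the other, and comparisons of lineages were not run because columns could not be assigned to samples.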
